A study of Mus musculus with 2 samples.

Results

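Sfrp4/Ptx3 fibroblasts are a group of connective tissue cells from injured mouse carotid arteries, chosen from single-cell RNA counts by the genes they transcribed. A cell entered when at least 3 of Col1a1, Col1a2, Col3a1, Dcn, Pdgfra and Lum were detected, with no count of Ptprc, Pecam1 or Myh11. It also had to carry at least 2 genes of the panel Sfrp4, Cpxm1, Mmp3, Ccl19, Ptx3 and Il33, and more of them than of 2 comparison panels led by Inhba and Tnc and by Sfrp2 and Comp. The rule kept 970 of 14451 cells. In the control library 429 of 6739 cells were members (6.37%, exact Clopper-Pearson 95% interval 5.79 to 6.98), and in the EC-Cx43-KO library 541 of 7712 (7.02%, 6.45 to 7.61). Among the fibroblast-gated cells the shares were 429 of 1031 (41.6%, 38.6 to 44.7) and 541 of 1240 (43.6%, 40.8 to 46.4). The intervals of the libraries overlapped, but they cover only the counting of cells, not differences between mice or libraries.

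The study asked how connexin 43, the gap junction protein encoded by Gja1, takes part in the repair of an injured endothelium. Carotid arteries were taken 18 hours after a temporary ligation, opened lengthwise to favour the endothelium, digested whole for 20 minutes and frozen, and RNA was counted with unique molecular identifiers (UMIs) at the 3′ ends of transcripts. The control library came from mice with both Gja1 alleles floxed and no Cre (CDH5 Cre- Cx43fl/fl), the EC-Cx43-KO library from mice that also carried an endothelial Cdh5 Cre (CDH5 Cre+ Cx43fl/fl), which the series text calls inducible. The floxed alleles and the injury were thus shared by both groups, and the age and sex of the mice are not given in the sources used here. By the protocol, digests of 1 genotype were joined, with at most 5 in a batch, while the series text speaks of a single control mouse. Each group has 1 library, so no difference has a replicate check, and no p-value is given. Pairs of values below are in the order control, EC-Cx43-KO. Levels are counts per 1000000 UMIs of the cell group (CPM), and intervals are 95% intervals of counting error only.

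Fibroblasts of the arterial adventitia, the outer coat of the vessel, make its collagen and hold a progenitor population marked by Pi16, Cd34 and Ly6a. After injury such cells can release chemokines, which draw leukocytes by binding G-protein-coupled receptors, and cytokines such as interleukin 6, which acts through gp130 and STAT3. Pentraxin 3, encoded by Ptx3, is a soluble pattern recognition protein, and Sfrp4 encodes a secreted protein that binds Wnt ligands.

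Members were deeper than the other fibroblast-gated cells, with medians of 7660 and 8082 UMIs against 5244.5 and 5045, and deep cells pass a detection rule more easily. Their summed UMIs were 4801950 and 6003219. The comparison groups held 73 and 95 cells by the Inhba/Tnc panel, 268 and 290 by the Sfrp2/Comp panel, and 261 and 314 that met no panel rule. The libraries shared 17 barcodes, and 1 member was affected. Gja1 was at 276 and 274 CPM in members, and at 32.1 (26.8 to 38.2) and 41.5 (35.7 to 48.0) CPM in cells with at least 3 endothelial markers. The labels do not say which part of Gja1 is removed, so 3′ counts do not check the knockout.

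The promoters of 3 genes on which the results turn are printed first: Saa3, an acute phase gene high in members, Il6, the cytokine of the marker list, and Isg15, an interferon-induced gene that differed between the libraries. Each runs from 250 bases before to 50 bases after the transcript start that RefSeq gives (GRCm38.p6). The sequence after that start was found at the start of a GENCODE transcript for Il6 and Isg15 but not for Saa3. In Saa3 (chr7:46715627-46715926, minus strand) capitals mark a C/EBP motif and, before it, an interferon-stimulated response element (ISRE), in Il6 (chr5:30012864-30013163, plus strand) an AP-1, a C/EBP and an NF-kB motif in that order, and in Isg15 (chr4:156200769-156201068, minus strand) 3 overlapping ISRE motifs.
Saa3: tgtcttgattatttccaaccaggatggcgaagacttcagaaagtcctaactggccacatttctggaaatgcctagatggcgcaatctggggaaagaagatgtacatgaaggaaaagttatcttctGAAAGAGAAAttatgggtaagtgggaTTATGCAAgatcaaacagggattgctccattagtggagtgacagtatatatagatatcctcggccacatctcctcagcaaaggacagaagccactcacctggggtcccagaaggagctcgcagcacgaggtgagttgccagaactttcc
Il6: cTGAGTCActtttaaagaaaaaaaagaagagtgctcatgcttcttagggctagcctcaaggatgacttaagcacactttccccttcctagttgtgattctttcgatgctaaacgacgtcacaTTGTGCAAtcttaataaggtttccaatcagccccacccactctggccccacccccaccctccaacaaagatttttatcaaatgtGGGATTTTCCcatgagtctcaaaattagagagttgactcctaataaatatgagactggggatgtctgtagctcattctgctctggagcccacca
Isg15: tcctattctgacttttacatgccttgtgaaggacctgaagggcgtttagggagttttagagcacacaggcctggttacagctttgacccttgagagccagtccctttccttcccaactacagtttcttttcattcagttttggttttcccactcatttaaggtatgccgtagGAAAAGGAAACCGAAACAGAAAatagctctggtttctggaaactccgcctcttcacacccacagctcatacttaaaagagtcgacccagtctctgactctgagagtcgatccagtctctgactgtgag
The motifs searched on both strands were AP-1 (TGANTCA), C/EBP (TTGCNNAA), the ISRE (GAAA, any 2 bases, GAAA) and the NF-kB consensus, and motifs may overlap. Of the 20 genes named below as highest in members, 14 had 1 or more of the 16 matching promoter entries. A C/EBP motif stood in 3 of these 16 promoters (Cxcl13, Plac8 and Saa3) against 10.8% of all 32851, an NF-kB motif in 1 (Tnfaip2) against 8.46%, and an AP-1 motif in 1 (Cadm3) against 7.81%. The ISRE, a search added after the values were seen, stood in 3 of the same 16 promoters (Ifi205, Ifi207 and Saa3) against 3.44% of all. In the 33 promoters of the interferon response list, from 29 of the 40 genes listed, it stood in 16 (48.5%) and the AP-1 motif in 9 (27.3%). The 10 genes named below as lowest in members had 10 promoter entries, from 7 genes. A C/EBP motif stood in 2 of these (20%), and the ISRE in 2 (20%), both of Kcnab1. The AP-1 motif stood in 1 and the NF-kB motif in none. A C/EBP or ISRE match was thus about as frequent in the lowest as in the highest genes. A match is a run of letters in this window and was not tested as a binding site.

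The label of these cells names Sfrp4, Cpxm1, Mmp3, Ccl19, Ptx3, Il6 and Cxcl5, of which the first 5 chose the cells and cannot check it. Of the others, Il6 went with the label and Cxcl5 against it. Sfrp4 was at 631 and 718 CPM in members, against 9.40 and 20.3 in Inhba/Tnc cells, 175 and 199 in Sfrp2/Comp cells and 354 and 229 in the cells of no panel. Ptx3 stood at 1647 and 1392 CPM, against at most 574 in any of the other groups of either library. These and the other 4 panel genes were used to choose the cells, so their levels describe the rule. Ccl19, a chemokine for cells with the receptor CCR7, was as high in Sfrp2/Comp cells (469 and 402 CPM) as in members (377 and 389).

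Il6, which the rule did not use, was at 1000.2 CPM (972 to 1029) and 875.5 CPM (852 to 900) in members. The next group in the control library was the cells of no panel at 527 CPM, followed by the Sfrp2/Comp cells at 425 and the Inhba/Tnc cells at 205. In the EC-Cx43-KO library these groups were at 443, 426 and 358 CPM, so the members were highest in both. After thinning each cell to 2000 UMIs, 62.4% and 58.5% of members held an Il6 UMI, against 29.0% and 29.1% of Sfrp2/Comp cells and 2.62% and 3.54% of macrophage-marker cells, where free RNA and transcription by those cells were not told apart. Without thinning these were 71.8% and 71.9%, 43.3% and 41.7%, and 7.71% and 9.57%, at median depths of 7660 and 8082, 5054.5 and 4347.5, and 7183 and 7304 UMIs.

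Cxcl5, a neutrophil-attracting chemokine, went against the label. It was at 641 and 479 CPM in members but at 1253 and 1303 CPM in Inhba/Tnc cells, and the log2 ratio of members over all other fibroblast-gated cells was 0.03 and -0.11. The cells are therefore called here by Sfrp4 and Ptx3.

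**Figure D1:**
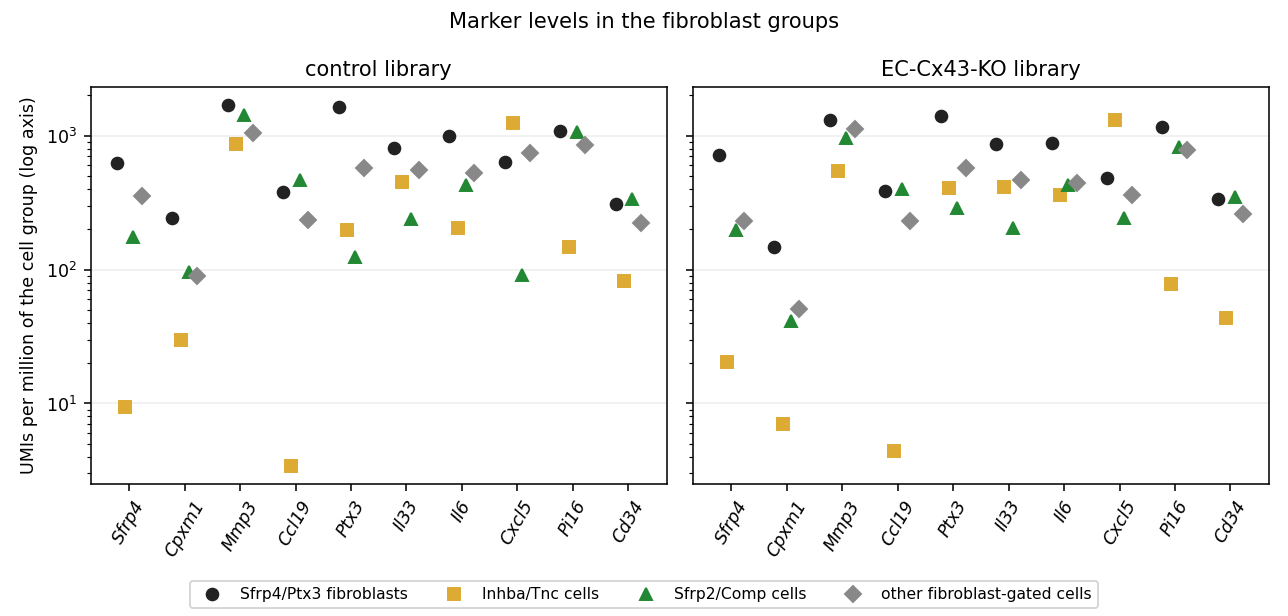
Levels of 10 marker genes in the fibroblast groups of each library, in CPM of the group on a log axis, 1 point per gene and group. Ptx3 and Il6 are highest in the Sfrp4/Ptx3 fibroblasts in both libraries, Cxcl5 is highest in the Inhba/Tnc cells, and Ccl19 and Cd34 are as high or higher in the Sfrp2/Comp cells.

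The progenitor markers Pi16 and Cd34 were present in members but did not set them apart, and Dpp4, given below, was far lower. Where in the vessel wall the cells lay was not measured. Pi16 was at 1084 and 1152 CPM in members and 1070.5 and 827 in Sfrp2/Comp cells, while Inhba/Tnc cells held 148 and 77.7. Cd34, a progenitor surface protein, was at 308 and 338 CPM in members and 336 and 346 in Sfrp2/Comp cells. Of the 18 adventitial progenitor genes on the list, 1 was at least 2-fold higher in members in both libraries (Ly6c1, 605 and 978 CPM against 277 and 408 in the other gated cells). Ccl19 and Cxcl13 also mark reticular cells of lymphoid organs, but of the other markers of those cells Ccl21a gave no UMI in members, Tnfsf11 gave 7 and 3 and Madcam1 gave 0 and 1, while Pdpn, which many fibroblasts share, was at 638 and 497 CPM.

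Markers of other cell types were low. The gate had removed 896 of 1927 and 1014 of 2254 cells for a Ptprc, Pecam1 or Myh11 UMI. Low sums of macrophage, endothelial and smooth muscle markers are thus no independent check of identity. Macrophage markers summed to 61.0 and 58.3 CPM in members against 5252 and 6255 in cells outside the fibroblast gate, endothelial markers to 73.1 and 78.6 against 424 and 411, and smooth muscle markers to 93.1 and 92.1 against 2085 and 2764. Neutrophil markers came to 181 and 275 CPM, and 407 of the 690 S100a8 and S100a9 UMIs sat in 1 control member and 1037 of 1363 in 2 EC-Cx43-KO members. Pericyte markers reached 239 and 211 CPM, above the 101 and 91.5 outside the gate, carried by Abcc9. Simulated doublets ranked 5 control (1.17%) and 18 EC-Cx43-KO members (3.33%) for removal.

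The next comparison asks which genes outside the panels and the gate accompany the rule, by setting members against all other fibroblast-gated cells of the same library. Since the rule chose the cells from these counts, the values are a description. Among 11846 genes with at least 20 UMIs in each library, 87 (0.734%) were at least 2-fold higher in members in both libraries and 328 (2.77%) at least 2-fold lower. The medians over all these genes were -0.09 and -0.12 on the log2 scale. The 20 highest and 10 lowest genes, ranked by the smaller of the 2 log2 ratios, are described gene by gene, beside the lists that hold them.

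Cxcl13, a chemokine for B cells through CXCR5, led the ranking at 226 and 217 CPM in members against 4.00 and 26.2 in the other gated cells. These transcripts lay in few cells. A Cxcl13 UMI was found in 22 and 30 members, and the 10 highest cells held 95.2% and 90.4% of the UMIs. Ccl11, the eosinophil chemokine eotaxin, was spread more widely: 48.5% and 53.1% of members held it, at 343 and 400 CPM against 88.9 and 116 (log2 1.95 and 1.79). Cxcl12, which holds stem cells and leukocytes through CXCR4, was at 1120.2 and 937 CPM against 472 and 442. Of 5 lymphoid chemokines counted, Cxcl12 and Cxcl13 were higher in members, and of 9 monocyte chemokines Ccl8 and Ccl11 were higher and 2 lower.

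None of the 5 neutrophil chemokines counted differed 2-fold in both libraries. Cxcl1 was at 1618 and 1543 CPM in members, against 1456 and 1179 in Inhba/Tnc cells and 801 and 775 in Sfrp2/Comp cells. Csf3, the growth factor of neutrophil production, was at 51.4 and 19.2 CPM in members and 6.20 and 6.87 in the other gated cells, from 247 and 115 UMIs in 56 and 24 members. Kitl, the ligand of the receptor Kit, was at 146 and 119 CPM against 49.4 and 57.0. Of 7 colony-stimulating factor genes counted, these 2 were higher in members and 2 (Csf2 and Il34, with at most 7 UMIs in members of either library) lower, with medians of -0.80 and -0.55. Il11, a cytokine of the interleukin 6 family, was among the 10 lowest genes at 5.21 and 6.83 CPM against 28.6 and 27.8. Inhba/Tnc cells held 95.7 and 67.1 CPM of Il11, while Sfrp2/Comp cells were about as low as members, at 7.17 and 5.39.

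Acute phase genes were the list with the most members above the other fibroblasts by count: 5 of the 12 counted were at least 2-fold higher in members and none lower, with medians of 0.70 and 0.83. Saa3, whose promoter is printed above and whose product is a lipid-binding acute phase protein, was at 1033 and 393 CPM against 216 and 107 (log2 2.25 and 1.88). It was carried by 29.6% and 20.9% of members, and after thinning by 23.7% and 14.3%, against 9.09% and 8.02% of macrophage-marker cells. Steap4, a metal reductase, was at 354 and 313 CPM against 145 and 107, and Lbp, which presents bacterial lipopolysaccharide, at 91.4 and 109 against 39.0 and 30.6. Hp, which encodes the haemoglobin scavenger haptoglobin, was at 29.8 and 36.8 CPM against 10.99 and 10.95, from 27 and 40 members. Saa1 reached 23.5 and 4.33 CPM against 2.20 and 0.742. With the rule and values taken on cells thinned to 2000 UMIs, and with the mean of single-cell CPM, 3 of the list were higher.

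Further genes of the 20 are given singly. Aldh1a2, which makes retinoic acid, was at 119 and 86.6 CPM in members against 24.2 and 16.5 in the other gated cells (log2 2.30 and 2.39), in 25.2% and 20.7% of members. Adh1, an alcohol dehydrogenase that can oxidise retinol, was at 33.7 and 31.3 CPM against 13.6 and 10.2. Adora2b, an adenosine receptor, was at 23.5 and 25.2 CPM against 6.59 and 4.45. The p200 family genes Ifi204, Ifi205 and Ifi207 stood at 173, 187 and 169 CPM in control members and 257, 269 and 253 in EC-Cx43-KO members, with log2 ratios over the other gated cells from 1.31 to 2.40. These genes are close paralogs on 1 chromosome, so reads may be split among them. The other genes of the 20 were Mcoln2, Cadm3, Plac8, Mgst3, Cyp7b1, Pla1a, Tnfaip2, Cmah and Hs3st1, with log2 ratios from 1.36 to 3.06. Being high among fibroblasts did not make all 20 particular to them. Adora2b, Ifi204, Ifi207, Plac8, Tnfaip2 and Hp were higher outside the fibroblast gate than in members in both libraries. Hp was at 124 and 115 CPM there, and Ifi204 at 291 and 398. The rest of the 20 were not higher outside in both libraries.

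**Figure D2:**
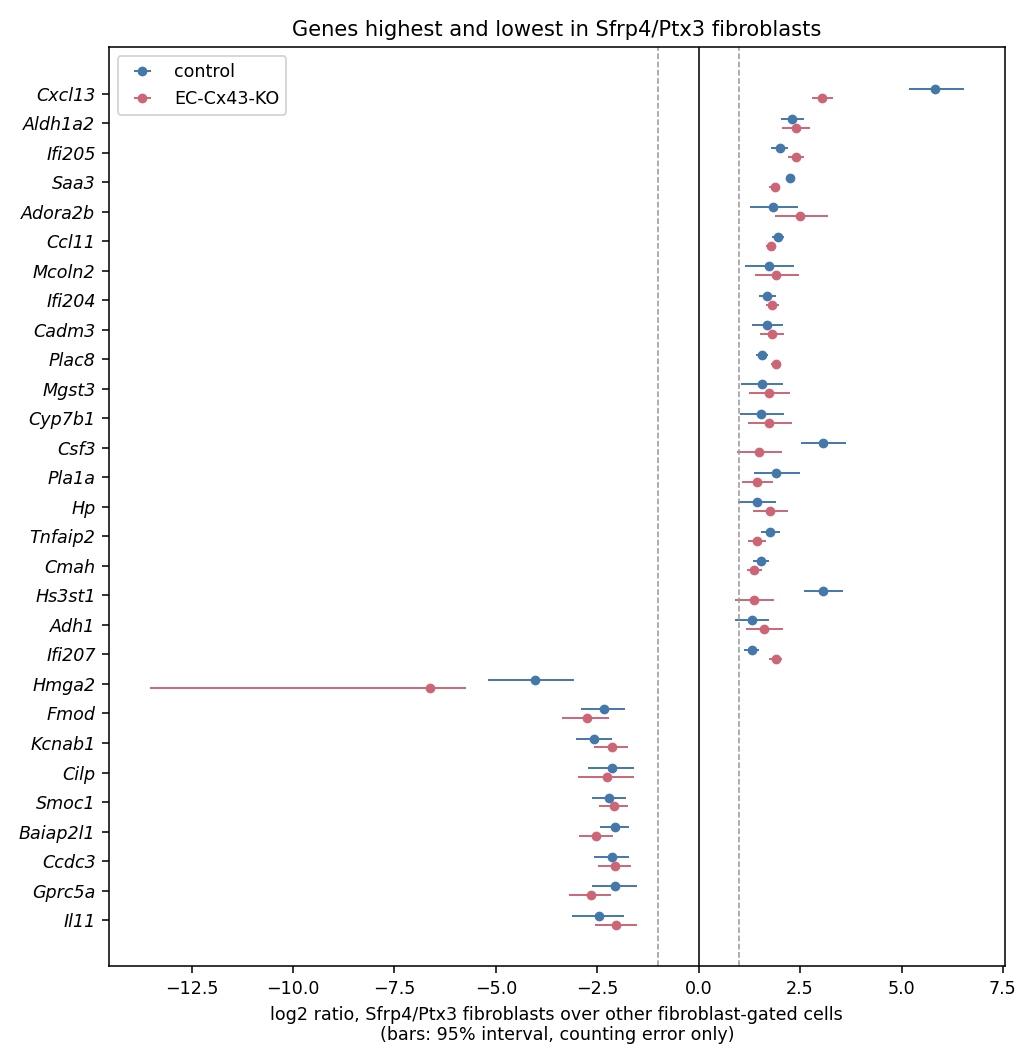
Log2 ratios of Sfrp4/Ptx3 fibroblasts over the other fibroblast-gated cells for the 20 genes highest and 9 of the 10 lowest in both libraries, control in blue and EC-Cx43-KO in red, with 95% intervals of counting error and dashed lines at a 2-fold difference. Csf3, Cxcl13 and Hs3st1 are the genes where the libraries lie furthest apart on the high side, and Hmga2, with 1 UMI in EC-Cx43-KO members, is drawn at 3 counts, with the interval of the single count.

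How the mean is taken and how cells are chosen moved some of these genes under the 2-fold limit. With the mean of single-cell CPM the smaller log2 ratio was 0.49 for Hp, 0.73 for Ifi207, 0.81 for Hs3st1, 0.83 for Adh1 and 0.95 for Cmah. With Il33 left out of the panel it was 0.91 for Pla1a and 0.80 for Cmah, and on thinned cells it was 0.94 for Cadm3, 0.84 for Mgst3 and 0.33 for Cmah, with opposite signs in the libraries for Pla1a.

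The lowest genes came next. Hmga2, a chromatin protein of growing cells, had 9 UMIs in control and 1 in EC-Cx43-KO members, against 30.8 and 49.7 CPM in the other gated cells. Fmod, a collagen-binding proteoglycan, was at 7.497 and 5.164 CPM against 38.0 and 35.1, and Cilp, a cartilage matrix protein, at 6.87 and 3.83 against 30.2 and 18.4. Sfrp2/Comp cells were the high group for both, at 75.5 and 84.7 CPM of Fmod and 70.0 and 43.7 of Cilp. Inhba/Tnc cells were about as low as members, at 11.1 and 4.41 CPM of Fmod and 2.56 and 1.77 of Cilp. Also among the 10 were Kcnab1, Smoc1, Baiap2l1, Ccdc3 and Gprc5a, with log2 ratios from -2.06 to -2.66. Of the fibroblast groups, Sfrp2/Comp cells were highest for Kcnab1, Smoc1 and Ccdc3, and Inhba/Tnc cells for Hmga2, Baiap2l1 and Gprc5a.

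Of 22 TGF-beta and BMP genes counted, 7 were lower in members and none higher, with list medians of -0.28 and -0.63 against -0.09 and -0.12 for all genes. Ltbp2, which binds elastic microfibrils, was at 45.2 and 50.5 CPM against 170 and 178, and Bmp4 at 14.6 and 10.2 against 44.0 and 31.4, and the list also holds Inhba, a gene of the comparison panel. Of 24 growth factor genes, with medians of -0.54 and -0.53, 6 were lower, including Hbegf at 33.3 and 33.3 CPM against 82.3 and 92.0, and Vegfd, a ligand for lymphatic vessels, was higher at 57.9 and 73.1 against 23.8 and 23.2. Among 17 collagens 1 (Col15a1) was lower, and Col3a1 stood at 6373 and 5962 CPM against 3671 and 3284 in the other gated cells. Eln, the elastin gene, was at 201 and 190 CPM against 628 and 525, while Efemp1, a fibulin, was at 594 and 616 against 244 and 222. Acta2, a marker of myofibroblasts and smooth muscle, was at 17.3 and 17.5 CPM against 57.4 and 74.0.

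Other defence genes were high without being 2-fold above the other fibroblasts. C3, the central complement protein, was at 1272 and 1339 CPM against 711 and 646, and of 15 complement genes none was counted as higher and 2 as lower (Cd59a and C3ar1, at most 8.83 CPM in members). Of 18 NF-kB target genes 1 (Tnfaip2) was higher, with medians of 0.21 and 0.30. Tnfaip6, which remodels hyaluronan, was the most abundant gene of the matrix list at 3302 and 2783 CPM against 1843 and 1899. Adamts5, a protease of aggrecan and versican, was at 871 and 1045 CPM against 494 and 443. None of 20 immediate early genes, which also respond to dissociation, was 2-fold different, and Fos was at 2755 and 2835 CPM against 3159 and 2863.

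Members differed among themselves in how many panel genes they carried. The counts of control members with 2, 3, 4, 5 and 6 panel genes were 58, 84, 118, 111 and 58, and those of EC-Cx43-KO members 60, 118, 164, 142 and 57. Depth went with this number: median UMIs were 1811.5 in control members with 2 panel genes and 14748 in those with 6, and 2249 and 12041 in the EC-Cx43-KO library. Levels were then taken on cells thinned to 2000 UMIs. The number of panel genes was still counted before thinning, so the groups differed in original depth, which the thinning does not remove. Il6 was at 569 CPM in control members with 2 panel genes and 1362 in those with 5. In the EC-Cx43-KO library it was at 656 and 1396 CPM. Between the same groups Saa3 ran from 51.7 to 1709.5 CPM in control members and from 78.1 to 452 CPM in EC-Cx43-KO members, and Cxcl12 from 552 to 1605 and from 406 to 1178. Members with 6 panel genes had 1223 and 1255 CPM of Il6, below those with 5, while Saa3 was at 1875 and 809 CPM and Cxcl12 at 1795 and 1536. At 1000 UMIs, which keeps more shallow cells, control members with 2 and 5 panel genes had 857 and 1536 CPM of Saa3, a far smaller step, and EC-Cx43-KO members 65.2 and 539.6 CPM. Pi16 had no such order, at 655 and 1057 CPM in control members and 1156 and 1085 in EC-Cx43-KO members. Left out as shallower than 2000 UMIs were 29 control and 28 EC-Cx43-KO members with 2 panel genes, and 6 and 7 of those with 5.

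Cells at the edge of the rule, given as a description, differed from members with more panel genes. Members with 2 panel genes had 1610.4 and 610.2 CPM of Ptx3 and 486 and 489 CPM of Il6, and cells with 1 panel gene and none of the comparison panels, 23 and 20 in number, had 591 and 355 CPM of Ptx3 and 355 and 473 CPM of Il6. Gated cells with at least 2 panel genes and a tie with a comparison panel, 136 and 168 in number, had 725 and 737 CPM of Ptx3 and 635 and 540.4 CPM of Il6.

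Among all fibroblast-gated cells thinned to 2000 UMIs, 777 and 982 in number, the panel genes were found together to different degrees. Ptx3 was detected in 54.3% and 52.5% of cells with Il33 and in 26.7% and 29.9% of those without. Sfrp4 was found in 48.1% and 50.4% of cells with Cpxm1, against 22.1% and 26.8% without it. By contrast Ccl19 was found in 32.2% and 36.5% of cells with Ptx3 and in 32.4% and 35.4% of those without.

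Within the members the same count, on 346 and 455 thinned cells and for pairs chosen after the values were seen, tied some secreted factors together. Cxcl1 was detected in 83.4% and 86.5% of members with Il6 and in 58.5% and 53.4% of those without. Ccl2 and Ccl7, neighbouring monocyte chemokines, behaved alike, with Ccl2 in 62.0% and 66.7% of members with Ccl7 and 25.3% and 23.1% of the rest. Il6 was found in 78.4% and 69.6% of members with Saa3, against 55.0% and 52.6% of those without. Pi16 was as frequent with Il6 (64.0% and 56.6%) as without (60.7% and 62.3%). These cells share a library, and counts within a cell are not independent.

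Spread between cells was ranked over 1463 genes with a mean of at least 0.2 UMIs per thinned member in both libraries. By the smaller value of the 2 libraries it was widest for Malat1, Mt1 and Mmp3. Their variance-to-mean ratios were 28.3 and 26.6, 22.6 and 19.8, and 17.3 and 21.0, where the median gene had 1.25 and 1.24. Cxcl13 was at 22.1 and 13.8 and Saa3 at 22.2 and 9.66, both far above the median gene. Saa3 rested on 127 and 113 members, and 9 and 8 cells were enough for 50% of its UMIs, against 45 and 57 cells for Il6.

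**Figure D3:**
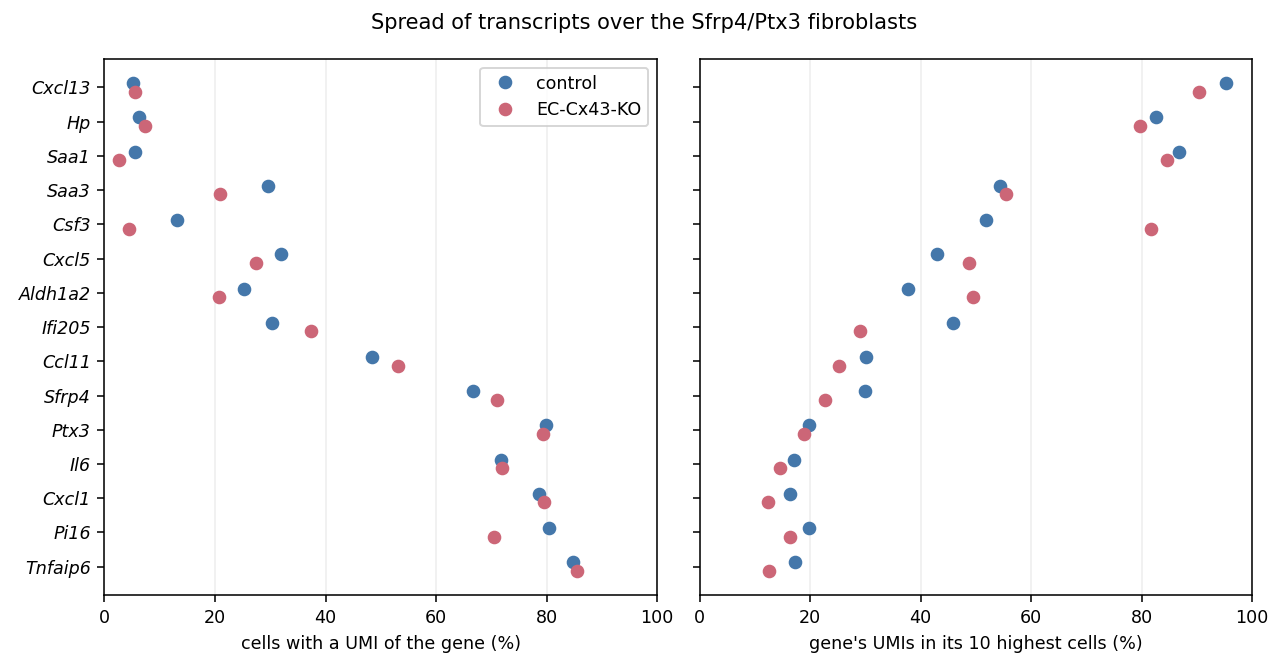
Share of Sfrp4/Ptx3 fibroblasts with at least 1 UMI of a gene (left) and share of the gene's UMIs held by its 10 highest cells (right), control in blue and EC-Cx43-KO in red, without thinning. Cxcl13, Hp and Saa1 lie in few cells, with 10 cells holding 79.6% or more of their UMIs, while Ptx3, Il6, Cxcl1, Pi16 and Tnfaip6 were found in 70.4% or more of the cells.

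The comparison the design implies sets the EC-Cx43-KO library against the control library within these cells, which were not the target of the Cre. Of 12025 genes with at least 20 UMIs in members, 691 (5.75%) were at least 1.5-fold higher in the EC-Cx43-KO library and 829 (6.89%) at least 1.5-fold lower, and the median of all genes was -0.08. Of the rule genes, Sfrp4 differed by 0.19 on the log2 scale (0.12 to 0.26) and Ptx3 by -0.24 (-0.29 to -0.20). Il6, which the rule did not use, differed by -0.19 (-0.25 to -0.14). Cpxm1, a carboxypeptidase-like secreted protein, was lower, at 242 against 146 CPM (log2 -0.72). Genotype, pool and library cannot be told apart in these values.

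Interferon-stimulated genes were higher in the EC-Cx43-KO library. Of 38 genes counted, 32 were at least 1.5-fold higher and none lower, the median log2 ratio was 1.08, and single genes ran from 0.27 (Irf9) to 3.62 (Ifi44). Isg15, a ubiquitin-like modifier whose promoter is printed above, had 303 UMIs in 99 control members and 1451 in 208 EC-Cx43-KO members, or 63.1 and 242 CPM. Ifit3, an RNA-binding antiviral protein, was at 23.7 and 129 CPM, and Bst2, which tethers virus particles, at 176 and 403. Rsad2, the antiviral enzyme viperin, was at 14.2 and 84.5 CPM and Irf7, a transcription factor of the interferon loop, at 15.2 and 43.8. Stat2 and Irf9, transcription factors that carry the signal of type I interferon, differed by less than 1.5-fold, at 37.9 and 49.97 and at 36.6 and 44.3 CPM.

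Guanylate-binding proteins and immunity-related GTPases, which act on membranes of intracellular pathogens, were higher too, with 12 of 14 at least 1.5-fold higher, none lower and a median of 1.09. Iigp1 was at 71.4 and 200.4 CPM, Igtp at 10.0 and 28.5 and Gbp6 at 6.87 and 20.2. The interferon-induced chemokine Cxcl10 had 25 UMIs in 5 control members and 355 in 37 EC-Cx43-KO members. Of 14 MHC class I genes 4 were higher and none lower, including the proteasome subunit Psmb8 at 19.8 and 39.8 CPM, and B2m, the light chain of class I molecules, was at 529 and 590.0. Several of these genes have near-identical copies (Ifit3 and Ifit3b, the Gbp cluster), between which reads may be split.

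The interferon signal was uneven over cells. At 2000 UMIs per cell, the median member had 2 UMIs of the list in the control library and 3 in the EC-Cx43-KO library, while the 90th percentile was 8 and 17 and the highest cell 22 and 65. A share of 15.03% and 12.31% of members had none. Ifit3 was found in 17.9% and 47.4% of members with Isg15 and in 2.61% and 5.87% of those without. The other fibroblast groups were higher too, with list medians of 0.55 in Inhba/Tnc cells, 0.90 in Sfrp2/Comp cells and 0.98 in cells of no panel, and outside the fibroblast gate the summed list went from 2868 to 5640 CPM. Whether these differ from the median in members was not tested.

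**Figure D4:**
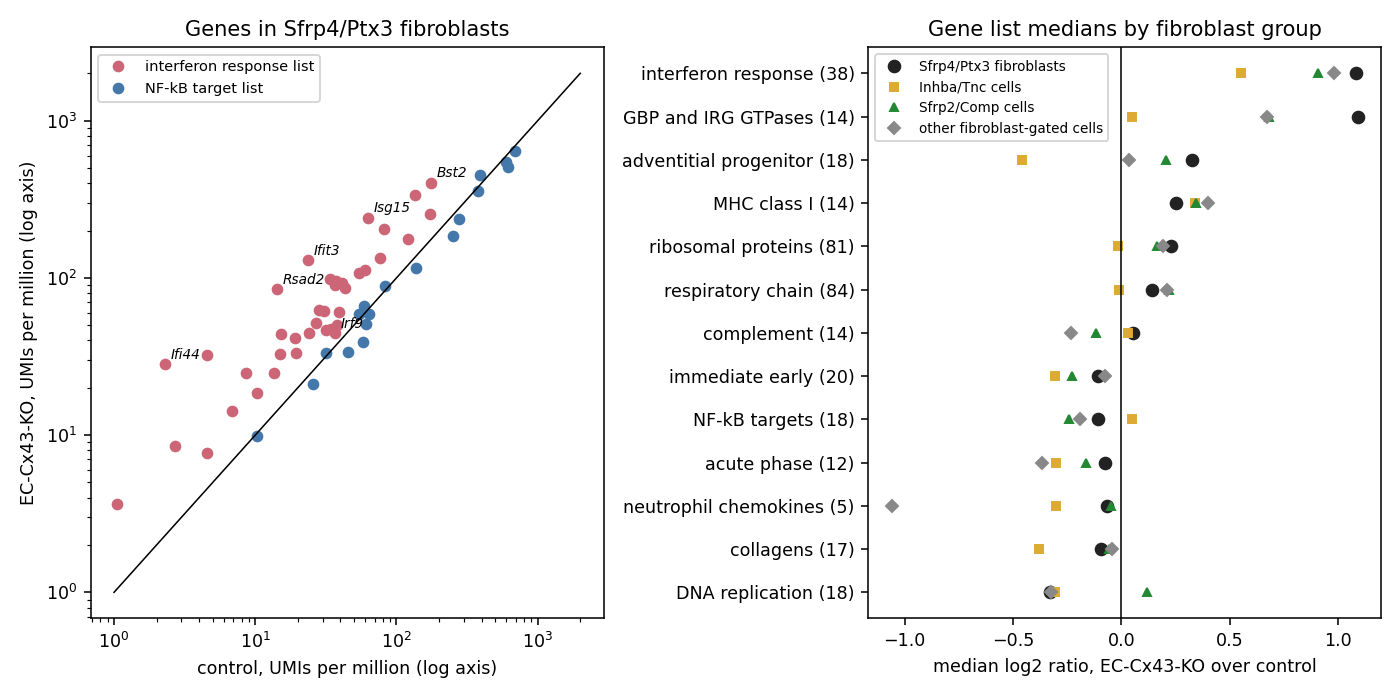
Left: levels in Sfrp4/Ptx3 fibroblasts of the 38 interferon response genes (red) and 18 NF-kB target genes (blue) in CPM, control against EC-Cx43-KO on log axes, with the line of equal levels. Right: median log2 ratio of EC-Cx43-KO over control for 13 gene lists in each fibroblast group, with the number of genes counted in Sfrp4/Ptx3 fibroblasts in brackets; the interferon response list is at 1.08 and the NF-kB target list at -0.11 in those cells.

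Sex-linked transcripts went with this difference. Members with Xist and no Y-linked UMI numbered 243 and 206, those with a Y-linked UMI (Ddx3y, Eif2s3y, Kdm5d or Uty) and no Xist numbered 85 and 179, and 8 and 19 had both. Each library thus held cells of both kinds, in different shares (56.6% and 38.1% Xist, 19.8% and 33.1% Y-linked). Cells of both kinds in the control library do not go with the single control mouse of the series text. In Xist cells the interferon list had a median of 1.93, with 37 of 37 genes at least 1.5-fold higher in the EC-Cx43-KO library. In Y-linked cells the median was -0.32, with 1 of 33 genes higher and 9 lower. Isg15 was at 44.3 and 376 CPM in Xist cells and at 87.2 and 70.0 in Y-linked cells. Within the control library the list was lower in Xist than in Y-linked cells (median -0.89 over 33 genes), and within the EC-Cx43-KO library it was higher (1.498 over 37 genes). The number of mice of each sex in each pool is not given in the sources used here, so genotype and the mice that made up each pool cannot be told apart.

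**Figure D5:**
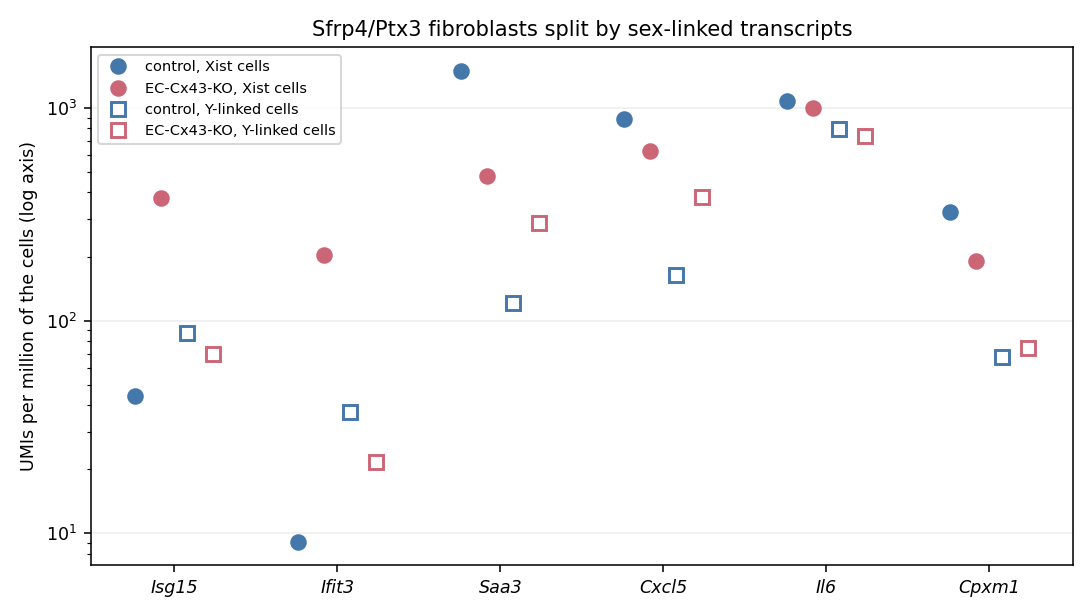
Levels of 6 genes in Sfrp4/Ptx3 fibroblasts with Xist UMIs (filled circles) and with Y-linked UMIs (open squares), control in blue and EC-Cx43-KO in red, in CPM on a log axis. Isg15 and Ifit3 are higher in the EC-Cx43-KO library among Xist cells only, Saa3 and Cxcl5 lie in opposite directions in the 2 kinds of cell, and Il6 lies between 739 and 1078 in all 4 points.

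Inflammatory gene lists did not move together between the libraries. Of 9 monocyte chemokines counted, 4 were at least 1.5-fold higher in the EC-Cx43-KO library and 1 lower, with a median of 0.22. Over all genes 5.75% were higher and 6.89% lower. Of 18 NF-kB targets none was 1.5-fold different, with a median of -0.11, and of 5 neutrophil chemokines 1 (Ppbp) was lower. Cxcl1 was at 1618 and 1543 CPM, Ccl2 at 953 and 898, Ccl7 at 991 and 1023 and Ptgs2, the inducible cyclooxygenase, at 1040.4 and 997. The acute phase list had a median of -0.08 with 2 of 12 genes lower. These were Saa3, at 1033 and 393 CPM (log2 -1.39), and Saa1, at 23.5 and 4.33. Saa3 also split by sex-linked transcripts, at 1491 and 477 CPM in Xist cells and 121 and 286 in Y-linked cells. Cxcl5 did the same, at 889 and 629 CPM against 165 and 380, and over all members it was at 641 and 479 (log2 -0.42).

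Of the adventitial progenitor list, 5 of 18 genes were at least 1.5-fold higher in the EC-Cx43-KO library and none lower, with a median of 0.33. Igfbp6, an insulin-like growth factor binding protein, was at 217 and 411 CPM and Clec3b, the plasminogen-binding protein tetranectin, at 296 and 517. Ly6c1 was at 605 and 978 CPM, and Dpp4 and Smpd3, at 18.5 and 29.5 and at 13.1 and 30.8, completed the 5. Pi16 and Cd34 were not among them, at log2 0.09 and 0.13. The other fibroblast groups did not all share this direction. The median of the progenitor list was -0.46 in Inhba/Tnc cells, 0.21 in Sfrp2/Comp cells and 0.03 in cells of no panel. Ribosomal protein genes in members had a median of 0.23 over 81 genes with none 1.5-fold different. Of 18 DNA replication genes 4 were lower and none higher, with a median of -0.33.

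The 12 genes highest in the EC-Cx43-KO library were, in order, Ifi44, Ifit3b, Plscr2, Ifit3, Pcdh11x, Gbp6, Igtp, Stk32b, Iigp1, Sbsn, Trmt61b and Matn2, of which Ifi44, Ifit3b and Ifit3 are on the interferon response list and Gbp6, Igtp and Iigp1 on the GTPase list. Among the 12 lowest, Igfbp3, which binds insulin-like growth factors, was at 52.9 and 4.66 CPM, and Cyp26b1, which breaks down retinoic acid, at 33.5 and 10.8. Hs3st1, a heparan sulphate sulphotransferase, was at 70.2 and 24.3 CPM and Csf3 at 51.4 and 19.2. The others were Saa1, Saa3, Ccdc163, Pex5l, C2cd2, Radil, Dagla and Il1rapl1.

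Single cells carried part of these extremes. One control member held 131 of the 254 Igfbp3 UMIs, 1 held 130 of 237 for C2cd2, 1 held 104 of 183 for Radil and 1 held 86 of 120 for Ccdc163. One EC-Cx43-KO member held 127 of 166 Trmt61b UMIs. Without the highest cell of each library, an alternative added after seeing the data, the log2 ratios were -2.74 for Igfbp3, -0.34 for C2cd2, -0.15 for Radil, -0.65 for Ccdc163 and -0.53 for Trmt61b, while Isg15 was at 1.97, Ifit3 at 2.57 and Saa3 at -1.42.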

How the data were processed

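Single-cell RNA-seq UMI counts per gene and barcode were deposited by the authors for 1 control and 1 EC-Cx43-KO library, 7298 and 8315 barcodes over 32285 genes. Per the submitters' processing notes they were made with Cell Ranger 8.0.1 and STAR on mm10, and how reads that match several genes were counted is not given in the sources used here. Barcodes with under 300 genes or over 15% mitochondrial UMIs were left out, and doublets were removed only through the excluded genes of the gate. UMIs were summed over members and divided by their total (CPM). Ratios have exact conditional intervals, single levels exact Poisson intervals and shares exact Clopper-Pearson intervals, at 95% and for counting error only. A gene was counted as higher or lower between the libraries from 1.5-fold and at least 20 UMIs, and between members and other fibroblast-gated cells from 2-fold in both libraries. Counts under 3 UMIs, also where there was none, were set to a floor of 3 in ratios.

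Named genes were the rule and label genes, the 20 highest and 10 lowest genes against other gated cells, the 12 highest and 12 lowest between the libraries (at least 100 UMIs, and for the libraries detected in 5% of members and no lower than outside the gate), and up to 5 genes of each list besides those counted as higher or lower. Ribosomal, mitochondrial, haemoglobin, chromosome Y and unnamed genes, Xist and Tsix stayed out of these rankings. Other genes of the X chromosome stayed in, among them Pcdh11x and Il1rapl1. Values of 2 genes are not reported here. The members, lists and rules were chosen with earlier results of these data known. Promoter windows came from RefSeq on GRCm38.p6. Alternatives covered the cell filters, the rule, doublets, free RNA, scaling, the mean and the UMI minimum. Sums and intervals were computed with pandas 2.3.3, SciPy 1.17.1 and NumPy 2.4.6, doublet ranks with scikit-learn 1.9.0, all under Python 3.11.15, and the scripts were tested on simulated data.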

Additional observations from a re-analysis of the deposited data

Results flagged for a closer look

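Differences between the libraries had opposite signs in members with Xist UMIs and members with Y-linked UMIs for several gene lists and genes. With 1 library per genotype the difference between the 2 kinds of cell was not tested. For the interferon response list the median log2 ratio of EC-Cx43-KO over control was 1.93 in Xist cells and -0.32 in Y-linked cells, and for guanylate-binding proteins and immunity-related GTPases it was 1.80 and -0.55. Isg15 differed by 3.09 in Xist cells and -0.32 in Y-linked cells, from 131 and 1011 UMIs and from 115 and 177 UMIs. Ifit3 differed by 4.47 and -0.77, from 27 and 544 and from 49 and 55 UMIs. Cxcl5 went the other way, at -0.50 in Xist cells and 1.21 in Y-linked cells, as did Saa3, at -1.64 and 1.24. Opposite signs were also seen for Cpxm1 (-0.76 and 0.15), the acute phase list (-0.16 and 0.37), the neutrophil chemokine list (-0.16 and 0.33) and the MHC class I list (0.43 and -0.10). Csf3 had 229 and 82 UMIs in Xist cells and 1 and 16 in Y-linked cells. The number of mice behind each kind of cell is not given in the sources used here, and their part in these differences was not tested.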

How the results depend on the processing

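Each group has 1 library, so no value has a replicate error, and leaving out a library leaves no comparison. No paired analysis was possible because each group has 1 library and no test was made. Genes with few UMIs are limited most by depth, and the counts of genes depend on the UMI minimum. The cause of each change below was not tested, except that a UMI minimum changes how many genes are counted.

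The share of members among fibroblast-gated cells was 36.0% and 38.8% with at least 3 panel genes, and 30.0% and 32.4% without Il33. Between the libraries 1312 genes were higher and 1563 lower from 1 UMI, 202 and 281 from 100 UMIs, and 1148 and 1694 with the mean of single-cell CPM. Against the other gated cells 54 genes were higher and 181 lower with the rule on thinned cells, and 161 were higher against the Inhba/Tnc and Sfrp2/Comp cells only. The acute phase list had 3 higher genes on thinned cells and 3 with the mean of single-cell CPM. Signs turned between the libraries for Radil, at 0.11 without Il33 and 0.038 on thinned cells, for C2cd2, at 0.10 on thinned cells, for Dagla, at 0.35 on thinned cells, and for Trmt61b, at -0.53 without the highest cell. Cxcl5 passed 1.5-fold lower in EC-Cx43-KO without Il33 (-0.64), on thinned cells (-0.98) and with the mean of single-cell CPM (-0.69). The interferon median between the libraries stayed between 0.96, with doublet-ranked cells removed, and 1.17, with median-of-ratios scaling, over the alternatives run. Over all alternatives, recomputed values that answer a comparison were counted as the same 168 times and as moved 15 times. The same meant a gene count within 1.5-fold or a share within the main interval. Log2 values of at least 0.58 in size had to keep their sign and stay at least that large. Smaller log2 values only had to stay under 0.58 in size, so their signs may have turned.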

Other observations

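Of 17 genes of the provisional matrix list none was 2-fold higher in members than in other fibroblasts and 3 were lower (Tnc, Spp1 and Ccn2). Of these, Tnc is a gene of a comparison panel, so its lower level describes the rule. Ccn2, a matricellular protein, was at 669 and 543 CPM against 1369.7 and 1230.2 in the other gated cells. Has1, which makes hyaluronan, had 5435 and 5191 UMIs in members and was detected in 77.9% and 77.8% of them. Igfbp5, an insulin-like growth factor binding protein, was unevenly spread, with 57.5% and 43.5% of its UMIs in the 10 highest cells. Between the libraries, Postn, which encodes the matrix protein periostin, was at 201 CPM in control and 94.5 CPM in EC-Cx43-KO members. Ccl11 was found in 39.5% and 40.2% of members with Ccl7 and in 20.5% and 31.7% of those without, at 2000 UMIs per cell and for a pair chosen after the values were seen. Cd34 was detected in 43.3% and 50.6% of members with Pi16 and in 30.2% and 23.7% of those without.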
